A study of Mus musculus with 8 samples.

Results

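The 36 genes described here mark endothelial cells of the liver, the cells that line its sinusoids and larger vessels. They were chosen by symbol from textbook markers, and all 36 were found among the 21899 genes of the deposited table. They comprise 11 genes of sinusoidal identity and scavenging, 8 of junctions and the cell surface, 9 of receptors and transcription factors, 3 of vascular tone and clotting, and 5 of angiocrine factors. RNA of whole mouse liver was sequenced from 4 libraries of P2X4R-deficient mice and 4 libraries of wild-type (WT) mice, all collected 8 h after ConA. P2rx4 encodes P2X4R, a cation channel opened by extracellular ATP. ConA, the jack bean lectin concanavalin A, causes hepatitis in mice by activating T cells. The genotype is a P2X4R knockdown in the sample labels but P2X4R-/- in the series text, and neither gives the altered exon, the strain, the sex or the age. Since livers not given ConA were not analysed here, every value is a level during hepatitis, and the comparison asks how liver expression differs with loss of the receptor.

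Liver sinusoidal endothelial cells have open pores and no continuous basement membrane. They take up waste proteins and immune complexes from blood through scavenger receptors such as those encoded by Stab1, Stab2, Clec4g and Fcgr2b. They also send signals to hepatocytes: BMP2 and BMP6 raise transcription of the iron hormone gene Hamp, and WNT2, WNT9B and RSPO3 maintain the gene programme around the central vein. Endothelial cells of larger vessels share the junction and receptor genes and carry more von Willebrand factor.

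Library totals ran between 15445285 and 16604190 counted reads. Nothing in the labels ties each library to its own animal; p-values therefore cover only the spread among these samples, which may be technical. P2rx4 was at 17.3, 24.9, 27.0 and 29.6 CPM in deficient libraries 1 to 4, against 43.8, 62.4, 59.7 and 57.6 CPM in WT libraries 1 to 4, where CPM is the read count relative to the library total after TMM scaling. Alb, the albumin gene that marks hepatocytes, averaged 67888 ± 9724 CPM in deficient and 88866 ± 5307 CPM in WT livers (SD, n = 4 each). The endothelial genes together held 2811 to 4425 reads in deficient and 2507 to 5918 reads in WT libraries. In whole liver, fewer endothelial cells and less RNA per cell cannot be told apart.

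Of the 36 genes, 30 had enough reads to be tested, and 5 of these (16.7%) differed between genotypes at an edgeR adjusted p under 0.05. Clec4g, Ptprb, Robo4 and Tie1 were lower in deficient livers and Vwf was higher. Over all 11380 genes tested, 19.9% passed the same threshold, 9.27% higher and 10.6% lower, so the share among endothelial genes was near that of the liver transcriptome. The estimate was negative for 16 of the 30 genes and positive for 14. Their median log2 fold change, deficient over WT, was -0.37, against -0.0015 over all genes tested, and it was 0.15 without WT 1. It was -0.11 over all 36 with no filter, and -0.21 with scaling by library size alone, where the median of all genes was 0.14. At an unadjusted edgeR p under 0.05, 4 of the 30 were higher and 9 lower. Over all genes tested 35.2% passed it in either direction, and their split by direction was not counted. The ranges of the genotypes were apart for 5 of the 30 (16.7%), namely Clec4g, Robo4, Tie1, Vwf and Gata4, against 24.9% of all genes tested. Gpr182, Emcn, Tek, Sox18, Wnt2 and Wnt9b were left out by the filter on low counts, and their reads are given with their groups.

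**Figure D1:**
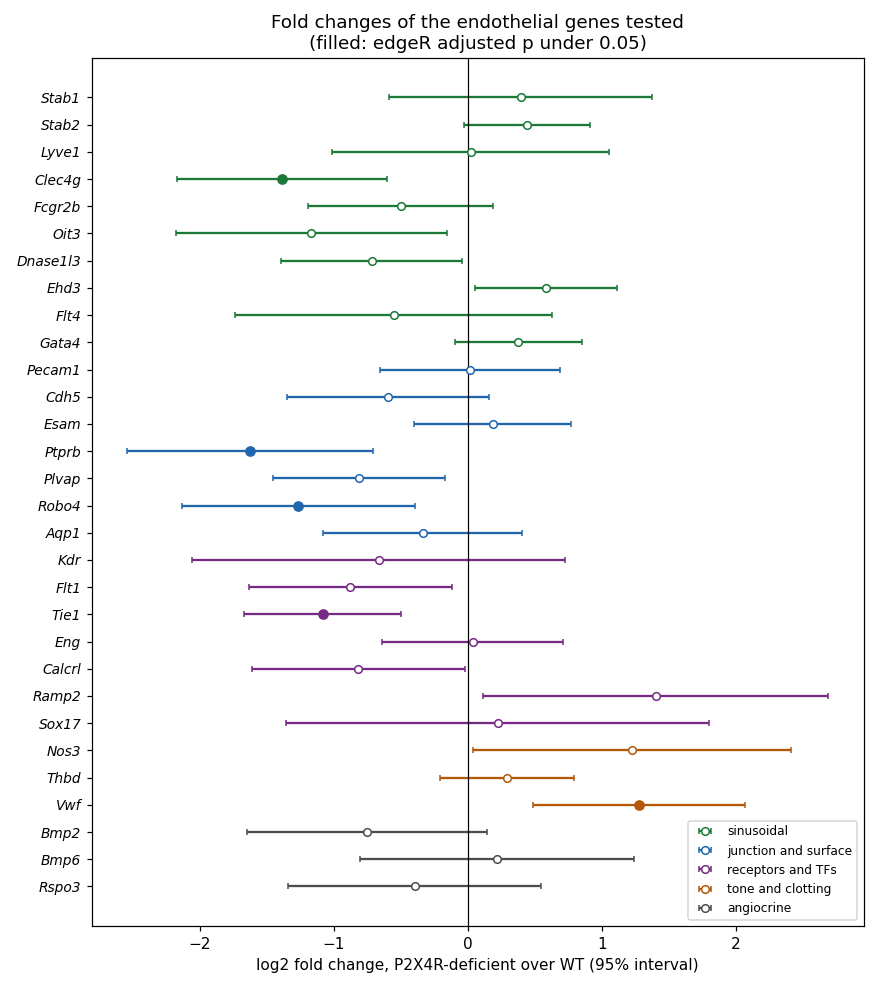
Log2 fold change of each endothelial gene tested (horizontal axis, P2X4R-deficient over WT, with its 95% interval), one gene per row, coloured by group of genes. Filled points passed an edgeR adjusted p of 0.05: 4 lie left of 0 (Clec4g, Ptprb, Robo4, Tie1) and 1 lies right of 0 (Vwf).

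Levels were compared between genes per unit of gene length. Plvap, which encodes the protein of the diaphragms across endothelial pores, had the highest level in both genotypes, at 11.0 ± 1.43 FPKM in deficient and 17.8 ± 10.5 FPKM in WT livers (SD, n = 4 each). FPKM is the authors' read count scaled to gene length and library total. Aqp1, a water channel gene, and Esam, a junction adhesion gene, were the next 2 in both genotypes. Aqp1 had 6.36 ± 2.84 FPKM in deficient and 7.26 ± 3.39 FPKM in WT livers, and Esam 5.80 ± 1.65 FPKM in deficient and 4.65 ± 1.88 FPKM in WT livers. In each genotype these 2 differed by less than the SD of Aqp1. Mean FPKM was 1 or more for 14 genes in deficient and 15 in WT livers, and under 0.5 for 15 and 16. Kdr, which encodes the main VEGF receptor, was among the lowest, at 0.0722 ± 0.0728 FPKM in deficient and 0.102 ± 0.0491 FPKM in WT livers. Clec4g stood at rank 15 in deficient and rank 9 in WT livers, while Vwf stood at rank 14 in deficient and rank 22 in WT livers.

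**Figure D2:**
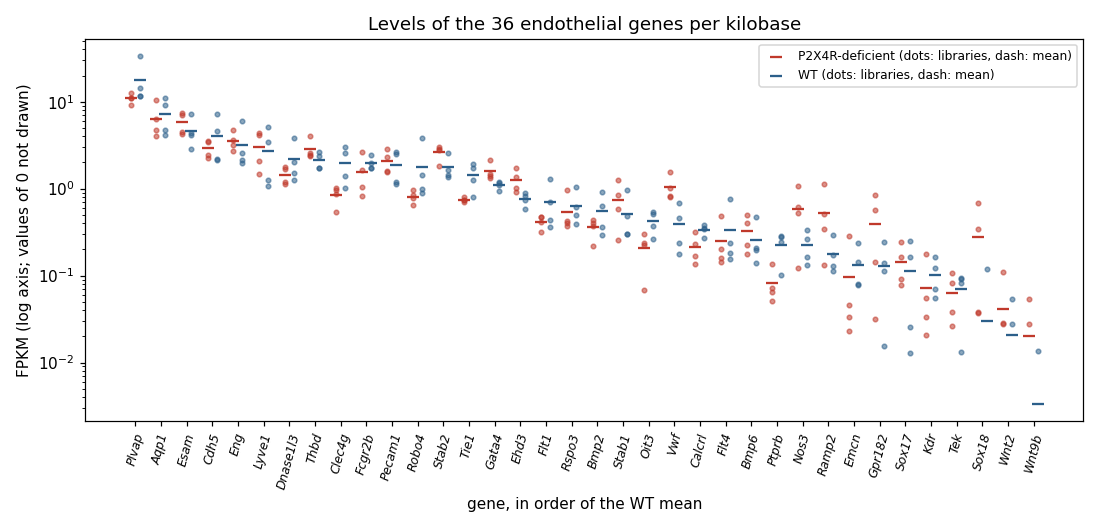
FPKM of the 36 endothelial genes (vertical log axis) in the order of their WT mean, with the 4 libraries of each genotype as dots and the mean as a dash, P2X4R-deficient left of WT for each gene. Plvap is highest and Wnt9b lowest in both genotypes, and values of 0 are not drawn.

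Among the sinusoidal genes, Clec4g fell and the other 9 tested did not pass. Clec4g encodes LSECtin, a C-type lectin of sinusoidal endothelium that binds glycans on pathogens and on T cells. It was at 2.23, 1.30, 2.31 and 2.01 CPM in deficient libraries 1 to 4, against 7.34, 6.89, 3.76 and 2.63 CPM in WT libraries 1 to 4. Every deficient library was below every WT library, and WT 4 lay close to the deficient values. The means were 1.97 ± 0.459 CPM in deficient and 5.15 ± 2.32 CPM in WT livers (SD, n = 4 each), a log2 fold change of -1.39 (SE 0.36, edgeR adjusted p = 0.0216). It was at -1.18 (adjusted p = 0.0507) without WT 1 and at -1.20 (adjusted p = 0.0569) without WT 2.

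Promoter sequences of 18 of the 36 genes were matched by symbol in RefSeq (build GRCm38.p6). Below are the 250 bases before the start of 3 genes whose start is placed at the same base by RefSeq and GENCODE M21. They are shown because they cover a gene that fell (Clec4g) and 2 that did not pass (Flt1 and Stab1). Capitals mark AGGAAG or its reverse complement, a core bound by ETS factors, the family that includes the endothelial regulator ERG. All 3 windows shown hold this core. Eng, Tek and Wnt9b also have the same start in both sources and are not shown. Of these, Eng holds the core, and Tek and Wnt9b do not. Clec4g is on the minus strand at chr8:3720652-3720901, Flt1 on the minus strand at chr5:147726012-147726261 and Stab1 on the minus strand at chr14:31168642-31168891.
Clec4g: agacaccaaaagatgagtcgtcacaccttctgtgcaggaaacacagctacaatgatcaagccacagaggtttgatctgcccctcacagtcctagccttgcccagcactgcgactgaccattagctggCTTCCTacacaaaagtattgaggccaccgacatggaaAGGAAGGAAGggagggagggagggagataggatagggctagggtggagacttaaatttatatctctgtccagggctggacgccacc
Flt1: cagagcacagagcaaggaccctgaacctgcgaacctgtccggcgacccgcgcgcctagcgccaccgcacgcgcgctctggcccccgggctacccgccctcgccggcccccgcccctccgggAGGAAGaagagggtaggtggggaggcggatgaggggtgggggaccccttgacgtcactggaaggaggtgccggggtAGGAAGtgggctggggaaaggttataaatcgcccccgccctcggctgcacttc
Stab1: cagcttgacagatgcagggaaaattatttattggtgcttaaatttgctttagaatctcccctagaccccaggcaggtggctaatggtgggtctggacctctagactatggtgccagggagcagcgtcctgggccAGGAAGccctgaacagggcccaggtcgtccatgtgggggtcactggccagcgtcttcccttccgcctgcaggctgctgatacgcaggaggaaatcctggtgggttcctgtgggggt
These letters were found on either strand in 10 of the 18 windows (55.6%) and in 29.5% of all 32851 promoter windows of the same length. In Clec4g they begin at -123, -86 and -82 from the start, the last 2 matches overlapping by 2 letters. They were also in the windows of Tie1 and Robo4, and of Eng, Calcrl, Emcn, Aqp1 and Stab2. Of the other letters searched on both strands, SOX (ACAANG) was in 5 of 18 windows against 36.3% of all, and RBPJ (TGGGAA) in 4 of 18 against 21.6%. The GATA letters AGATAA were in 0 of the 18, against 9.99% of all windows. The same count held for AP-1, searched as TGANTCA, against 6.75% of all. Over the 11671 windows of tested genes the shares were 28.1% for ETS, 29.1% for SOX, 20.8% for RBPJ, 6.01% for GATA and 4.82% for AP-1. For some of the 18 genes RefSeq and GENCODE M21 place the start at different bases, 707 apart for Ehd3. A match describes these letters only.

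The scavenger receptor genes gave no common direction. Stab2, which encodes the hyaluronan clearance receptor stabilin-2, was at 22.8, 16.0, 24.5 and 23.7 CPM in deficient libraries, against 22.7, 15.7, 13.5 and 12.2 CPM in WT libraries. Deficient 2 and WT 1 crossed the other group, and the log2 fold change was 0.44 (SE 0.22, edgeR adjusted p = 0.169). Without WT 1 it was 0.64 (adjusted p = 0.0427). Stab1, its paralogue that macrophages also express, was at 12.1, 2.61, 5.61 and 8.27 CPM in deficient and 9.81, 5.41, 3.36 and 3.20 CPM in WT libraries, so that the groups overlapped widely. Lyve1, a hyaluronan receptor gene, was at 11.4, 5.96, 4.05 and 12.0 CPM in deficient and 14.7, 11.0, 3.43 and 3.78 CPM in WT libraries. Its interval for the difference ran from -1.01 to 1.05 on the log2 scale, so a 2-fold change either way lay inside it.

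Oit3, which encodes a secreted zona pellucida domain protein, was at 0.784, 0.186, 0.578 and 0.632 CPM in deficient and 1.52, 1.55, 1.12 and 0.769 CPM in WT libraries. WT 4 lay just below deficient 1, and the log2 fold change of -1.17 (SE 0.46) did not pass (edgeR adjusted p = 0.095). Dnase1l3, which encodes a secreted nuclease that digests DNA of dead cells, was at -0.72 (SE 0.31, adjusted p = 0.121), and Fcgr2b, the inhibitory Fc receptor gene, at -0.50 (SE 0.32, adjusted p = 0.286). Ehd3, which encodes an endocytic recycling protein, was at 0.58 (SE 0.24, adjusted p = 0.111). Gata4, the transcription factor gene that sets sinusoidal identity, was at 4.77, 5.40, 7.69 and 5.52 CPM in deficient and 4.68, 4.64, 3.96 and 4.74 CPM in WT libraries. All deficient values exceeded all WT values by a small margin, and the log2 fold change of 0.38 (SE 0.22) did not pass (adjusted p = 0.246). Flt4, the VEGFR3 gene, was at -0.55 (SE 0.54) and at 0.19 without WT 1. Gpr182, a chemokine-scavenging receptor gene, was not tested and held 51, 2, 9 and 37 reads in deficient and 7, 15, 9 and 1 reads in WT libraries.

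Of the junction and surface genes, Ptprb and Robo4 fell and 5 others tested did not pass. Ptprb encodes VE-PTP, a phosphatase that acts on the receptor TIE2 and the junction protein VE-cadherin. It was at 1.69, 0.683, 0.810 and 0.919 CPM in deficient libraries, against 3.23, 4.01, 4.09 and 1.41 CPM in WT libraries. WT 4 lay inside the deficient range and the other WT libraries lay above it. The means were 1.03 ± 0.453 CPM in deficient and 3.18 ± 1.24 CPM in WT livers (SD, n = 4 each), a log2 fold change of -1.63 (SE 0.42, edgeR adjusted p = 0.0213). It was at -1.53, -1.49 and -1.48 without deficient 3, WT 2 or WT 3 (adjusted p = 0.0611, 0.0528 and 0.0665).

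Robo4 encodes a roundabout receptor that stabilises the vessel wall. It was at 4.77, 4.47, 3.82 and 3.27 CPM in deficient libraries, against 20.3, 8.30, 5.14 and 5.45 CPM in WT libraries. The groups did not overlap, but WT 3 and WT 4 were within 1 CPM of deficient 1, and WT 1 stood far above the rest. The log2 fold change was -1.26 (SE 0.40, edgeR adjusted p = 0.0441). Without WT 1 it was -0.64 (adjusted p = 0.103), and the gene passed in 2 of 8 fits that left out 1 library, those without WT 3 or WT 4. Without deficient 1, 2, 3 or 4 or WT 2 its adjusted p was 0.0683, 0.0638, 0.102, 0.0973 and 0.0609. It also did not pass when libraries were scaled by size alone (-1.14, adjusted p = 0.0674). In limma on log2(FPKM + 1) it was at -0.52 (limma adjusted p = 0.154). On log2(FPKM + 0.1) it was at -0.83 (limma adjusted p = 0.133).

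Plvap was at 17.0, 21.8, 20.6 and 24.0 CPM in deficient libraries, against 66.3, 25.4, 31.0 and 24.0 CPM in WT libraries. WT 4 and deficient 4 had the same level, and the log2 fold change of -0.81 (SE 0.29) did not pass (edgeR adjusted p = 0.0689), though it did in DESeq2 (-0.82, adjusted p = 0.0342). Without WT 1 it was -0.37 in edgeR (adjusted p = 0.145). Pecam1 and Cdh5, the genes of the adhesion proteins CD31 and VE-cadherin found at endothelial junctions, were at 0.01 (SE 0.31) and -0.60 (SE 0.35). Pecam1 had 16.5, 9.75, 9.08 and 13.8 CPM in deficient and 15.7, 17.9, 7.58 and 7.63 CPM in WT libraries, with WT libraries at both ends of the range. Cdh5 had 13.4, 9.38, 9.49 and 14.2 CPM in deficient and 30.3, 20.9, 9.89 and 9.23 CPM in WT libraries, where WT 1 and 2 lay above all others, and its estimate was -0.21 without WT 1. Esam was at 0.18 (SE 0.27) and Aqp1 at -0.34 (SE 0.34). Red cells also express Aqp1, and the summed level of 8 erythroid markers was 229 to 382 CPM in deficient and 185 to 1447 CPM in WT libraries, highest in WT 1. Emcn, an endothelial sialomucin gene, was not tested, with 24, 4, 2 and 3 reads in deficient and 20, 12, 7 and 7 reads in WT libraries.

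**Figure D3:**
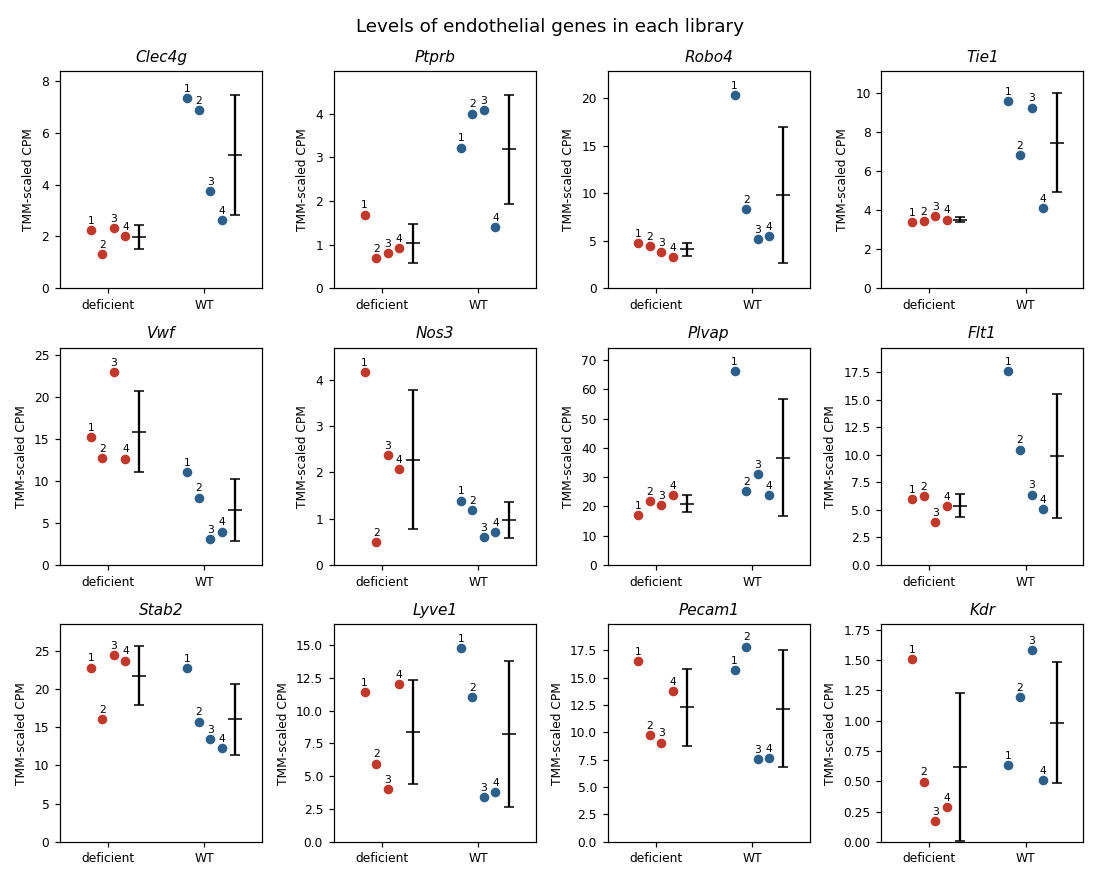
TMM-scaled CPM (vertical axes, from 0) of 12 endothelial genes in each library, P2X4R-deficient in red and WT in blue, with the library number beside each point and the mean ± SD in black. Clec4g, Robo4 and Tie1 are lower in all deficient libraries, Vwf is higher in all, and WT 1 stands well above the other WT libraries for Robo4 and Plvap.

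Among receptors and transcription factors, Tie1 fell and 6 others tested did not pass. Tie1 encodes an orphan receptor tyrosine kinase that modulates angiopoietin signalling through TIE2. It was at 3.38, 3.42, 3.70 and 3.50 CPM in deficient libraries, against 9.55, 6.82, 9.23 and 4.10 CPM in WT libraries. Deficient values lay within a narrow band just under WT 4, while WT values spread over more than 2-fold. The means were 3.50 ± 0.144 CPM in deficient and 7.43 ± 2.53 CPM in WT livers (SD, n = 4 each), a log2 fold change of -1.08 (SE 0.27, edgeR adjusted p = 0.0185). It passed in 7 of 8 fits that left out 1 library, and was at -0.96 (adjusted p = 0.0622) without WT 3.

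The VEGF receptor genes Flt1 and Kdr had negative estimates that did not pass. Flt1, which encodes VEGFR1, was at 5.97, 6.27, 3.93 and 5.34 CPM in deficient libraries, against 17.6, 10.5, 6.40 and 5.06 CPM in WT libraries. WT 4 lay inside the deficient range, and the log2 fold change was -0.88 (SE 0.35, edgeR adjusted p = 0.0935). It was -0.45 without WT 1 (adjusted p = 0.279) and -1.08 without WT 4 (adjusted p = 0.0438). Kdr had 25, 8, 3 and 5 reads in deficient and 10, 17, 24 and 8 reads in WT libraries, and its interval ran from -2.05 to 0.72 on the log2 scale. Tek, which encodes TIE2, was not tested, with 6, 2, 8 and 3 reads in deficient and 7, 6, 7 and 1 reads in WT libraries. Eng, which encodes the BMP co-receptor endoglin, was at 0.03 (SE 0.31).

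Calcrl and Ramp2 encode the 2 subunits of the adrenomedullin receptor and had estimates of opposite sign. Calcrl was at 1.45, 0.808, 1.04 and 0.632 CPM in deficient and 1.33, 2.04, 1.85 and 1.73 CPM in WT libraries (log2 fold change -0.82, SE 0.36, edgeR adjusted p = 0.131). Ramp2 was at 3.44, 0.435, 1.56 and 1.09 CPM in deficient and 0.569, 1.05, 0.462 and 0.385 CPM in WT libraries (1.40, SE 0.59, adjusted p = 0.113). Deficient 2 was low and deficient 1 high for Ramp2, which was at 1.71 (adjusted p = 0.0432) without deficient 2 and at 0.74 (adjusted p = 0.390) without deficient 1. Sox17, an arterial transcription factor gene, was at 0.22 (SE 0.72). Sox18, its relative, was not tested, with 17, 9, 1 and 1 reads in deficient and 0, 3, 0 and 0 reads in WT libraries.

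Vwf was the member that rose. It encodes von Willebrand factor, the multimer that endothelial cells store and release to capture platelets. It was at 15.1, 12.7, 22.9 and 12.6 CPM in deficient libraries, against 11.1, 8.02, 3.10 and 3.97 CPM in WT libraries. All deficient values lay above all WT values, with deficient 4 and WT 1 the nearest. The means were 15.8 ± 4.85 CPM in deficient and 6.54 ± 3.70 CPM in WT livers (SD, n = 4 each), a log2 fold change of 1.28 (SE 0.36, edgeR adjusted p = 0.0303). It was 1.30, 1.04, 1.04 and 1.12 without deficient 1, deficient 3, WT 3 or WT 4 (adjusted p = 0.0506, 0.0891, 0.0743 and 0.0664), and 1.65 without WT 1.

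Megakaryocytes and platelets also carry Vwf RNA, and their part in its level was not tested. Their 9 markers summed to 3.47 to 5.52 CPM in deficient and 7.37 to 10.3 CPM in WT libraries. Of 3 tested, 2 passed (66.7%, against 19.9% of all genes). Ppbp fell by 1.49 (SE 0.34) and Itga2b by 0.87 (SE 0.24) on the log2 scale. Pf4 was at -0.29 (SE 0.43), and Gp1bb was at 0 in every library. Without deficient 1, deficient 3, WT 2, WT 3 or WT 4 Itga2b did not pass, leaving 1. Nos3, the endothelial nitric oxide synthase gene, had 4.16, 0.497, 2.37 and 2.07 CPM in deficient and 1.39, 1.20, 0.594 and 0.705 CPM in WT libraries. Deficient 2 lay below every WT library, and the log2 fold change of 1.22 (SE 0.54) did not pass (edgeR adjusted p = 0.130), but was 1.55 (adjusted p = 0.0287) without deficient 2 and 0.76 (adjusted p = 0.366) without deficient 1. Thbd, the thrombomodulin gene, was at 0.29 (SE 0.23, adjusted p = 0.394).

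The angiocrine genes were low in all libraries, and none of the 3 tested passed in edgeR, with 0 at an unadjusted p under 0.05 and 0 by DESeq2. Bmp2 was at 1.45, 1.30, 1.33 and 0.747 CPM in deficient and 3.23, 2.46, 1.12 and 1.35 CPM in WT libraries (log2 fold change -0.75, SE 0.41, edgeR adjusted p = 0.216). WT 1 and 2 were high and WT 3 and 4 lay with the deficient libraries. Bmp6 was at 0.22 (SE 0.47) and Rspo3 at -0.40 (SE 0.43). Wnt2 held 1, 1, 4 and 0 reads in deficient and 1, 0, 2 and 0 reads in WT libraries, and Wnt9b 0, 0, 2 and 4 against 0, 0, 1 and 0 reads. A difference in these Wnt genes was not detectable at this depth, since a count of 0 allows up to 3 reads.

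Receptors and targets of these signals were also measured. Of 25 Wnt receptor and pericentral target genes tested, 5 fell and 0 rose, with a median of -0.30; this share of 20% was near the 19.9% of all genes. Fzd5, a Wnt receptor gene, fell by 0.98 (SE 0.24), and Notum, a Wnt-induced feedback inhibitor gene, by 1.44 (SE 0.43). Glul, which encodes glutamine synthetase of the hepatocytes around the central vein, had 1054, 1192, 1258 and 994 CPM in deficient and 1522, 1738, 1688 and 1528 CPM in WT libraries, and fell by 0.53 (SE 0.15). Lect2 and Gulo also fell. Axin2, a general Wnt target gene, averaged 1.07 ± 0.141 CPM in deficient and 1.09 ± 0.524 CPM in WT livers (SD, n = 4 each). With 1 library left out, 0 fell without WT 3, 1 without deficient 1 or deficient 3, 2 without WT 4, and 3 without deficient 4, WT 1 or WT 2. Scaling libraries by size alone left 2.

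Of 21 BMP receptor and target genes tested, 5 fell and 1 rose (28.6%, against 19.9% of all genes), with a median of -0.23. Bmpr2, the type II BMP receptor gene, fell by 0.62 (SE 0.18), and Acvr1, Smad5, Hfe and Id2 fell as well. Bmper, which encodes an extracellular BMP-binding protein, rose by 0.87 (SE 0.20), with 44.4, 32.7, 57.8 and 37.7 CPM in deficient and 30.0, 20.5, 20.6 and 23.3 CPM in WT libraries. Hamp, the hepcidin gene, did not pass, at 1253 ± 465 CPM in deficient and 1701 ± 944 CPM in WT livers (SD, n = 4 each, edgeR adjusted p = 0.543). With 1 library left out, 0 fell without deficient 3, WT 3 or WT 4, 1 without deficient 1 or WT 2, and 3 without deficient 4. Scaling by library size alone left 0. Bmper did not pass without WT 3.

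Endothelial genes outside the 36 again split both ways. Of 19 further endothelial genes tested, 3 fell and 1 rose (21.1%, against 19.9% of all genes), with a median of -0.05. S1pr1, which encodes the receptor through which sphingosine-1-phosphate seals junctions, was at 16.1, 21.0, 15.5 and 20.6 CPM in deficient and 40.6, 34.5, 44.8 and 31.9 CPM in WT libraries. It fell by 1.05 (SE 0.17, edgeR adjusted p = 0.00481) and passed in 8 of 8 fits that left out 1 library. Ets1, an ETS transcription factor gene that lymphocytes also express, fell by 1.31 (SE 0.25) and also passed in 8 of 8, whereas Sox7 fell by 1.31 (SE 0.41) and passed in 2 of 8. Egfl7, which encodes a protein secreted by endothelial cells, rose by 1.68 (SE 0.49), with 9.41, 3.23, 2.95 and 8.10 CPM in deficient and 3.67, 1.41, 1.19 and 1.09 CPM in WT libraries. Egfl7 did not pass without deficient 1, deficient 4, WT 2, WT 3 or WT 4.

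Among 8 flow-responsive genes tested, 2 fell and 0 rose (25%, against 19.9% of all genes), with a median of -0.42. Edn1, the endothelin-1 gene, was at 0.483, 0.932, 0.694 and 0.747 CPM in deficient and 5.19, 2.25, 2.44 and 1.54 CPM in WT libraries, and fell by 1.99 (SE 0.43). Adamts1, a metalloproteinase gene, averaged 53.9 ± 10.8 CPM in deficient and 121 ± 22.4 CPM in WT livers (SD, n = 4 each), and fell by 1.17 (SE 0.19). Both passed in 8 of 8 fits that left out 1 library, and without deficient 4 the endothelin receptor gene Ednrb also fell and the ligand gene Apln, not tested with all 8, rose. Klf2, the flow-induced transcription factor gene, was at -0.43 (SE 0.25, edgeR adjusted p = 0.254).

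The ligands of the VEGF receptors were measured with their co-receptors, where 1 of 8 tested rose and 1 fell (25%, against 19.9% of all genes), with a median of -0.19. Vegfb, a ligand of VEGFR1, was at 5.43, 7.27, 8.97 and 10.3 CPM in deficient and 4.24, 2.88, 4.15 and 4.42 CPM in WT libraries, and rose by 1.02 (SE 0.25, edgeR adjusted p = 0.0168). It passed in 8 of 8 fits that left out 1 library. Nrp1, the neuropilin-1 gene, fell by 1.13 (SE 0.34) and passed in 2 of 8, those without deficient 2 or WT 1, where 2 genes of the list fell. WT 1 had 73.1 CPM of Nrp1, below 3 of the deficient libraries. Vegfa was at -0.57 (SE 0.27, adjusted p = 0.148).

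Of 13 capillary and basement membrane genes tested, 1 rose and 0 fell (7.69%, against 19.9% of all genes), with a median of -0.02. Nid1, which encodes the basement membrane linker nidogen-1, was at 54.8, 59.0, 62.9 and 46.7 CPM in deficient and 27.7, 36.9, 29.0 and 37.9 CPM in WT libraries, and rose by 0.76 (SE 0.16, edgeR adjusted p = 0.0112), also in 8 of 8 such fits. Without deficient 3, 1 of these genes fell. Of 9 Notch pathway genes tested, 0 passed in edgeR, 3 had an unadjusted p under 0.05 and DESeq2 called 1. With 1 library left out, 1 rose without deficient 2 or WT 1 and 1 fell without deficient 2 or deficient 4. Notch4, the endothelial Notch receptor gene, averaged 1.98 ± 0.871 CPM in deficient and 0.732 ± 0.488 CPM in WT livers (SD, n = 4 each, edgeR adjusted p = 0.062).

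Libraries of the same genotype differed widely in endothelial genes. The highest library exceeded the lowest by a median of 1.76-fold in deficient and 2.33-fold in WT livers over the 30 genes tested, against 1.57-fold and 1.50-fold over all genes tested. For 22 of 30 genes the deficient libraries, and for 26 of 30 the WT libraries, spread over a wider fold than the difference between the group means. That count was not made over all genes tested, so it cannot be called particular to endothelial genes. WT 1 had the highest of all 8 values for 14 of the 30 genes (46.7%), against 18.8% of all genes tested. Within its group, deficient 1 was highest for 19 of 30 (63.3%, against 27.5% of all genes) and WT 1 for 19 of 30 (63.3%, against 31.8%). WT 3 and WT 4 were each lowest in their group for 14 of 30. The summed level of the 36 genes was 267, 175, 199 and 215 CPM in deficient libraries, against 374, 260, 176 and 161 CPM in WT libraries, so that each group held both high and low libraries.

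**Figure D4:**
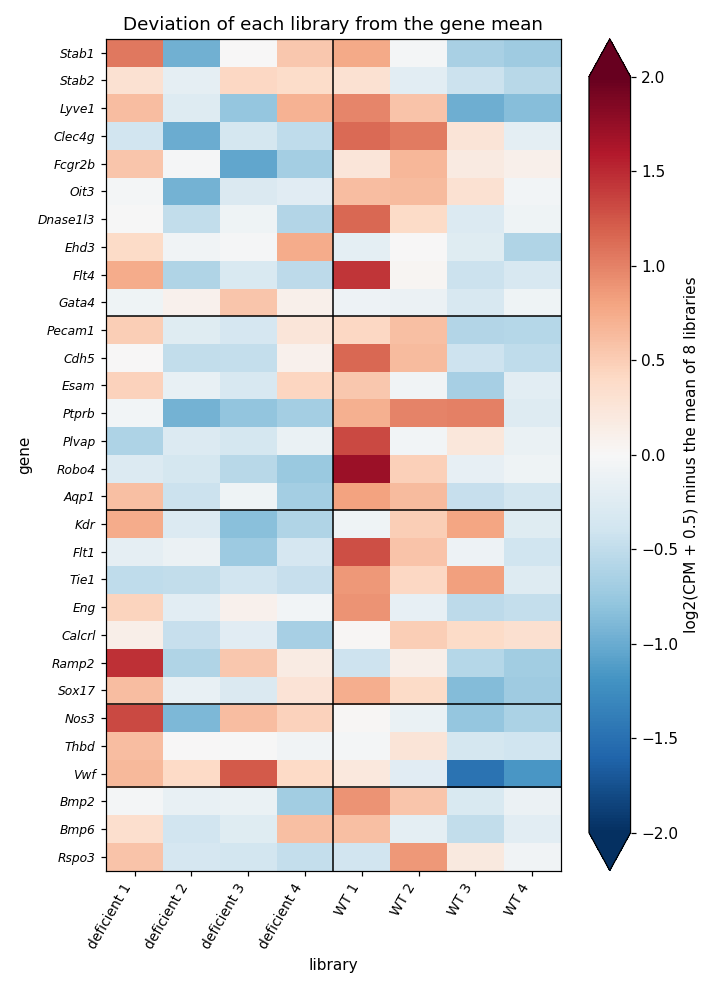
Deviation of each library from the mean of 8 libraries, in log2(CPM + 0.5), for the 30 endothelial genes tested (rows, with lines between groups of genes) and the 8 libraries (columns, P2X4R-deficient left of the line, WT right of it). WT 1 is above the mean for 24 of 30 genes and WT 4 for 2 of 30, and Vwf is the only gene above the mean in all 4 deficient libraries.

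Macrophages line the same sinusoids. Of 12 Kupffer cell and macrophage markers tested, 5 fell and 0 rose (41.7%, against 19.9% of all genes), with a median of -0.93, and their summed level was 69.0 to 85.4 CPM in deficient and 80.1 to 233 CPM in WT libraries. Cd5l, Mrc1, Csf1r, Adgre1 and Clec4f were the genes that fell, and Mrc1 is also expressed by sinusoidal endothelium. Marco and Cd68 did not pass, at -0.30 (SE 0.43) and 0.05 (SE 0.34). With 1 library left out, 0 fell without deficient 3, 1 without deficient 2, WT 1 or WT 2, and 2 without deficient 1 or deficient 4. Scaling by library size alone left 1. WT 1 had the highest sum of these markers as well as of the 36 endothelial genes. Whether macrophage content had a part in the endothelial values was not tested.

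No call among the 5 genes changed its sign when a library was left out. The number of endothelial genes that rose ran from 0 to 3 over the 8 fits and the number that fell from 1 to 6. Those that fell numbered 1 without WT 2 (Tie1), 2 without deficient 3, WT 1 or WT 3, and 6 without WT 4, where Flt1 and Plvap also passed. Vwf did not pass without deficient 1, deficient 3, WT 3 or WT 4, so that 0 genes rose there, and Nos3 and Ramp2 joined it without deficient 2. Stab2 joined it without WT 1. Over these fits the number of all genes past the threshold ran from 982 to 2388.

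**Figure D5:**
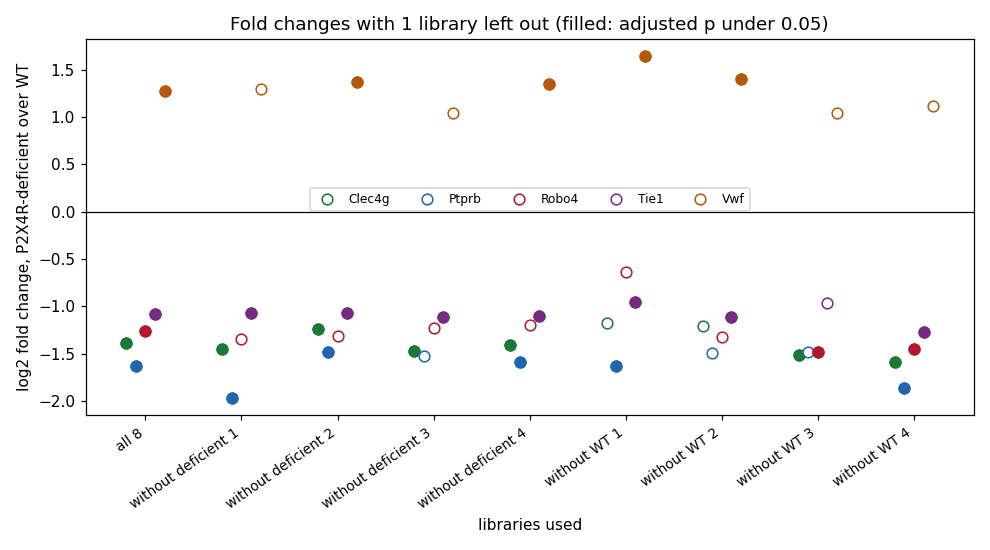
Log2 fold change, P2X4R-deficient over WT (vertical axis), of the 5 endothelial genes that passed with all 8 libraries, and with each library left out in turn (horizontal axis). Filled points passed an edgeR adjusted p of 0.05: Tie1 did so in 7 of 8, Clec4g in 6, Ptprb in 5, Vwf in 4 and Robo4 in 2, and Robo4 moved from -1.26 to -0.64 without WT 1.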

How the data were processed

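Counts and FPKM of 8 liver libraries, 4 per genotype, were used. Per the submitters' processing notes, reads were trimmed with cutadapt and aligned with HISAT2 2.0.5; for the counting program, strand, annotation and genome build the sources used here name nothing. The deposited read counts are raw counts per gene, per the file headers. The deposited FPKM values are the authors' counts scaled to gene length and library total, and recomputing them for the endothelial genes gave values within 0.000458%. Positions of 0 of the 36 genes equalled those of GENCODE M21 (GRCm38), so no coordinates of the table are printed.

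The edgeR 4.0.16 quasi-likelihood test (R 4.3.3) was run on all 8 libraries with TMM scaling and the default expression filter, which left 11380 genes and removed 10519, with Benjamini-Hochberg adjustment over all of them and a threshold of 0.05. A standard error is the log2 fold change divided by the square root of F. In counts simulated for the same 11380 genes, the test recovered 57% of 2-fold and 90% of 4-fold changes, with 10 false calls. Only 100 genes were changed at each fold, drawn at random, whereas 2264 genes passed in the data. Endothelial genes also spread more widely between libraries than all genes tested, so these rates need not hold for them.

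Replicate pairs exceeded sampling noise (chi-square over its degrees of freedom, 21.5 to 109). The floor of 3 reads covers counting error only, while intervals of fold changes also hold the spread between libraries. Without stated strand, reads of overlapping genes cannot be separated.

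The members, the gene lists and the rule for named genes (all 36 members, P2rx4, and from each other list up to 4 genes with the smallest p and genes near 0) were chosen with earlier results of these data known. Axin2, Hamp, Klf2, Gulo, Acvr1, Smad5, Clec4f, Marco, Cd68, Apln and Ly6g lie outside the rule and were named after their values were seen. Other lists covered Wnt, BMP, VEGF, Notch, flow, capillary and further endothelial genes, and markers of hepatocytes, macrophages, stellate cells, cholangiocytes, platelets, red cells, B cells, T and NK cells, neutrophils, lymphatic endothelium and mesothelium. Alternatives were RLE or no scaling factors, other filters, limma 3.58.1 on log2(FPKM + 1) or log2(FPKM + 0.1) for genes at 0.5 FPKM or more in 4 libraries, DESeq2 1.42.0, robust dispersion, a replicate block, and leaving out single libraries.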

Additional observations from a re-analysis of the deposited data

Results flagged for a closer look

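In 11 of 72 groups of 4 libraries, 1 library stood apart from the other 3 by more than Dixon's critical value. Chance exceeds that value in about 1 of 20 groups if values are normal and groups are independent. These groups share the same 8 libraries, and the share over all genes was not computed, so 11 cannot be called an excess. Deficient 1 was high for Flt4, at 3.74 CPM against 1.18 to 1.56 CPM in the other deficient libraries, for Thbd, at 14.0 CPM against 8.50 to 9.07 CPM, for Rspo3, at 2.78 CPM against 1.09 to 1.24 CPM, and for Emcn, at 1.45 CPM against 0.116 to 0.248 CPM. WT 1 was high for Flt4, at 6.33 CPM against 1.38 to 2.11 CPM in the other WT libraries, for Plvap, at 66.3 CPM against 24.0 to 31.0 CPM, and for Eng, at 24.2 CPM against 8.70 to 11.3 CPM. WT 3 was low for Gata4, at 3.96 CPM against 4.64 to 4.74 CPM in the other WT libraries. The last 3 rest on at most 3 reads each, with Tek at 0.0641 CPM in WT 4, Sox18 at 0.211 CPM in WT 2 and Wnt9b at 0.0659 CPM in WT 3.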

How the results depend on the processing

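With all 8 libraries, the number of endothelial genes that rose was 1 in every alternative, and the number that fell was 4 in most of them, 3 with scaling by library size alone, 5 in DESeq2 and 2 in limma on log2(FPKM + 1) or log2(FPKM + 0.1), where Clec4g and Tie1 passed. Limma covered 18 of the genes. Robo4 was among these and did not pass, whereas Ptprb was not covered. The median log2 fold change of the 18 was 0.16 with a pseudocount of 1 and 0.25 with 0.1. In edgeR it was 0.02 for the same genes and -0.37 for the 30. Scaling by library size alone moved the median of all genes by 0.14 and the share of higher calls to 67.2% (1731 higher, 843 lower), against 46.6% (1055 and 1209) with TMM scaling; the share was 66.3% (1602 and 813) in limma with a pseudocount of 1. With 1 library left out, all genes called ran from 982 to 2388, endothelial genes that rose from 0 to 3, those that fell from 1 to 6 and their median from -0.67 to 0.15. Genes that changed sign there were Lyve1 (-0.24 to 0.45), Pecam1 (-0.16 to 0.26), Eng (-0.12 to 0.48), Sox17 (-0.15 to 0.92), Bmp6 (-0.087 to 0.64) and Flt4 (-1.08 to 0.19), and none of them passed with all 8. The cause was not tested. Of 481 values of single genes under the alternatives, 439 kept their direction and their side of the threshold, 19 lost a call, 6 gained one and 17 changed sign. A gene not tested in an alternative, such as Ptprb in limma, has no value there. Same-numbered libraries of the 2 genotypes were correlated in their deviations at 0.13, -0.11, 0.07 and -0.11, and no library correlated best with its own number. These values cannot exclude that same-numbered libraries were handled together. A fit with the replicate block called 1768 genes, against 2264 without it, with the same 5 endothelial genes and a median of -0.36. Genes at few reads, such as Kdr, Tek and the Wnt genes, are limited by depth.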

Other observations

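Other cells of the liver were measured through markers, each given as genes past an edgeR adjusted p of 0.05 among those tested. Over all genes tested this share was 19.9%. Of 13 stellate cell and fibroblast markers, 4 fell and 1 rose (38.5%). Reln, a stellate and lymphatic glycoprotein gene, fell by 0.99 (SE 0.15) and the transcription factor gene Hand2 rose by 2.09 (SE 0.47). The number that fell was 2 without deficient 2, deficient 3, WT 1, WT 2 or WT 3. Of 11 neutrophil markers, Mmp8 and Cxcr2 rose (18.2%), by 2.12 (SE 0.55) and 1.53 (SE 0.44), and all 11 estimates were positive. With 1 library left out, 6 rose without WT 1, 5 without WT 2, 1 without deficient 1 or WT 3, and 0 without deficient 4. The counts without WT 1, WT 2 or WT 3 include Ly6g, a marker not tested with all 8 libraries. Without WT 3 it was the only one, and neither Mmp8 nor Cxcr2 passed.

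Of 11 hepatocyte markers only the urea cycle gene Cps1 fell (9.09%), by 0.94 (SE 0.24). It did not pass without deficient 1, deficient 3 or WT 3, while 2 markers fell without WT 1 and DESeq2 called 4. Of 6 cholangiocyte markers Sox9 fell (16.7%), by 2.06 (SE 0.55), and not without deficient 3, deficient 4 or WT 3. Of 7 T and NK cell markers Gzma fell (14.3%), by 0.84 (SE 0.26), and with a library left out it passed only without deficient 4 or WT 3. Of 4 lymphatic endothelial markers Reln was the one that fell (25%). Mmrn1 and Ccl21a, which define these vessels, held 47 and 56 reads in all deficient libraries together and 37 and 27 in all WT libraries together. None of 6 erythroid, 3 mesothelial and 1 B cell markers passed, with 4, 1 and 0 at an unadjusted p under 0.05 and 1, 1 and 0 called by DESeq2. Moreover, 4 erythroid markers fell without WT 4, and 1 mesothelial marker fell without deficient 1, WT 1 or WT 2.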
